A study of Mus musculus with 8 samples.

Results

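Collagen chains are the building blocks of the extracellular matrix, and 42 of them were followed here in white adipose tissue of mice with and without Sel1l in adipocytes. They are all the genes whose symbol in the array's annotation reads Col, a number, a and a number, and that had a probe set assigned to no other gene. They made up 42 of the 18820 genes compared. Of these chains 11 were fibrillar, 6 belonged to the type IV network of basement membranes, 6 to type VI, 8 were fibril-associated, 2 were multiplexins (types XV and XVIII), 4 were transmembrane, 3 belonged to types VIII and X, and Col26a1 and Col28a1 stood apart. Col7a1 and Col9a3 shared their probe sets with another gene and were left out of the count.

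The tissue came from 8 male mice, 4 wildtype (WT) and 4 labelled Sel1l-/-, each measured on its own array after 5 weeks on a high fat diet. The strain of both groups was C57BL/6 with the N and J substrains mixed. Sel1l-/- mice carried floxed Sel1l alleles that were deleted by Cre under the adiponectin promoter, so the deletion was directed at adipocytes and not at the other cells of the tissue. The labels used here do not say whether WT mice carried a floxed allele or Cre, how old the mice were, or which fat depot was taken. Sel1l, the adapter of the Hrd1 ubiquitin ligase in the endoplasmic reticulum (ER), was 1.73-fold lower in Sel1l-/- mice, with log2 values from 9.56 to 10.07 against 10.48 to 10.65 in WT (limma adjusted p = 0.0109), which bears out the labels. The adipocyte products Adipoq (11.80 to 12.89 over all 8 arrays) and Plin1 (12.34 to 12.84) lay far above the upper quartile of all probe sets on every array (8.44 to 8.47). The median of all probe sets was higher on every Sel1l-/- array (lowest 6.1, highest 6.14) than on any WT array (lowest 6.05, highest 6.08). The scale of the arrays was thus not fully even between genotypes. Precision is limited by there being 4 arrays in each group.

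Each collagen molecule is wound from α chains that fold in the ER, where prolines and lysines are hydroxylated, and is then exported, trimmed and crosslinked outside the cell. Fibrillar collagens give tissue its tensile strength and are made largely by fibroblasts and adipocyte progenitors. Adipocytes themselves lie in a basement membrane of type IV collagen and laminin and are surrounded by type VI collagen, whose deposition in fat is known from obesity. Sel1l and Hrd1 remove proteins that fail to fold in the ER.

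The regions before the start sites of 3 chains are shown first: Col1a2 and Col3a1, major fibrillar chains whose levels varied between mice, and Col20a1, whose call depended on the fit. Col12a1, the chain that passed the threshold, and Col1a1 are among the 8 chains without a window in the table used here, so the sequences and motif counts leave them out. Each sequence is the 250 bases before the RefSeq start of the gene in GRCm38.p6, 5′ to 3′ on the gene's strand. Capitals mark a CCAAT box (those letters), a TATA box with the letters TATAAA, a GC box with the letters GGGCGG or a SMAD box with the letters CAGACA, searched on both strands. Col1a2 lies at chr6:4505368-4505617, Col3a1 at chr1:45311288-45311537 and Col20a1 at chr2:180986285-180986534, all on the plus strand.
Col1a2: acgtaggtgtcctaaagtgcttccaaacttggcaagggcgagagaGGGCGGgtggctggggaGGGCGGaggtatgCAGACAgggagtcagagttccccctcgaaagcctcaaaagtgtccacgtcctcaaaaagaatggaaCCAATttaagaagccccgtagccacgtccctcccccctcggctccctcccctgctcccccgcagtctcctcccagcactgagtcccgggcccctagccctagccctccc
Col3a1: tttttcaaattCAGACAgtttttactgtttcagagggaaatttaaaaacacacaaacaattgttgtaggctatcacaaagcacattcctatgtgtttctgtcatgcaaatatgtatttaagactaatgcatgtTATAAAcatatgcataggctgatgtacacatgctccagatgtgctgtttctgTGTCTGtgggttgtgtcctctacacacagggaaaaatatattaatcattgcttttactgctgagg
Col20a1: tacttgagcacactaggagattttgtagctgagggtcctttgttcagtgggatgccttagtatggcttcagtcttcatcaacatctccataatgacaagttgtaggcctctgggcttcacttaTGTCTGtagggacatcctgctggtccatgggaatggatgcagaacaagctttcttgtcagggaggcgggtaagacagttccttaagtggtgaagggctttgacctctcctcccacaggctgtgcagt
In Col1a2 the CCAAT box lies 109 to 105 bases before the start, with a SMAD box at 175 to 170 and a pair of GC boxes farther out. Col3a1 has a TATAAA run 117 to 112 bases before the start and a SMAD box on each strand, and 35.2% of its bases are G or C, against 62.0% in Col1a2. Of the 34 chains with such a window, 20 held a GC box (58.8%, against 32.7% of all 32851 windows), 12 a CCAAT box (35.3% against 33.8%), 8 a SMAD box (23.5% against 17.1%) and 5 a TATA box (14.7% against 12.4%). The ER stress element, which begins with a CCAAT box, was in none of them and in 0.113% of all windows. The unfolded protein response element TGACGTGG (0.563% of all windows) and the ATF4 composite element TGATGNAA (3.45%) were also in none. Shares of chains are set beside shares of windows here, and 3 of the chains had 2 windows. All of these are matches of letters in a short window and not shown to be sites of a factor.

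Of the 42 chains, 1 rose in the Sel1l-/- mice and none fell (limma, adjusted p under 0.05). That is 2.38% of the chains, beside 1.72% of all genes tested (1.04% higher and 0.685% lower), and 6 chains had an unadjusted p under 0.05 (14.3%, against 15.0% of all genes). The differences below are Sel1l-/- minus WT on the log2 scale. Arrays of the groups did not overlap for 6 chains (14.3%, against 10.3% of all genes, of which 5.22% were higher and 5.07% lower), Col12a1 and Col20a1 being higher and Col4a5, Col8a2, Col15a1 and Col24a1 lower. The shares of chains called and without overlap lay near those of all genes. The difference was smaller than 0.2 in either direction for 36 chains (85.7%, against 78.5% of all genes), and the median was -0.01. When arrays were set to a common median, the all-gene calls moved from 195 higher and 129 lower to 119 and 154, and negative differences went from 25 to 31 of the 42 chains and from 9634 to 12077 of all genes. In RNA from whole tissue, fewer cells of a type and less RNA per cell cannot be told apart.

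**Figure D1:**
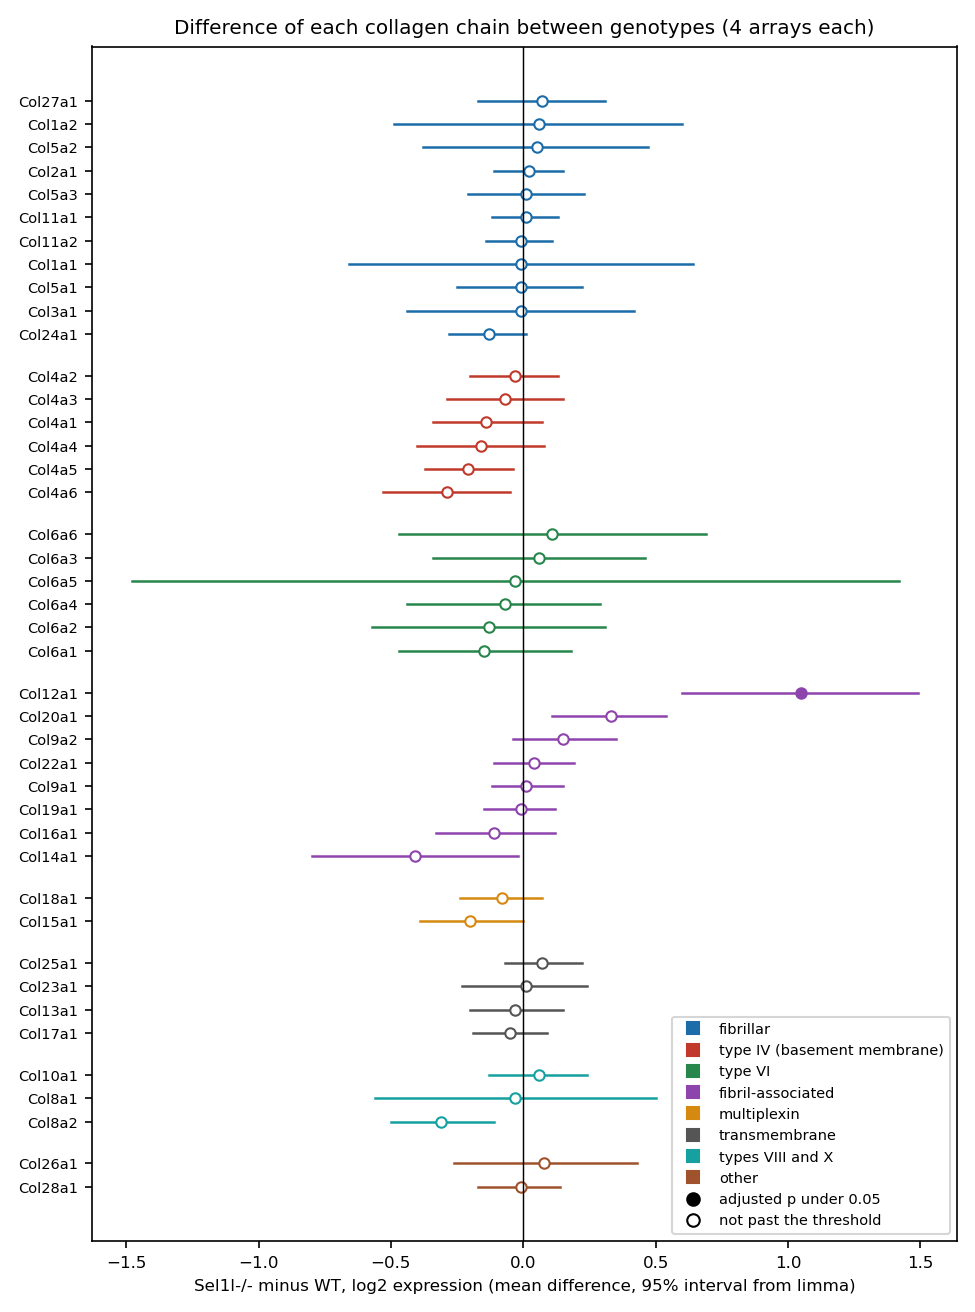
Difference of each of the 42 collagen chains between Sel1l-/- and WT adipose tissue on the log2 scale (horizontal axis), grouped by type (colour), with the 95% interval from limma; a filled circle marks an adjusted p under 0.05. Col12a1 is the 1 filled circle, at 1.05, and most of the others lie within 0.2 of 0.

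Col12a1 encodes type XII collagen, which coats type I fibrils and links them to the surrounding matrix. Its log2 expression was 8.14, 8.85, 8.00 and 8.63 in WT 1 to 4 and 9.52, 9.30, 9.74 and 9.25 in Sel1l-/- 1 to 4. The lowest Sel1l-/- array lay above the highest WT array, and the WT arrays were more spread out. The mean rose from 8.41 ± 0.40 to 9.45 ± 0.22 (SD, n = 4 each), or 2.06-fold (log2 difference 1.05, standard error 0.20, 95% interval 0.60 to 1.49, limma adjusted p = 0.0409). It passed the threshold in 6 of 18 alternative fits and kept its sign in all of them. The call was lost with the replicate number as a block (adjusted p = 0.0600), with the arrays centred (0.0516), with a block for the mouse-code letter or number (0.551 and 0.134), in an ordinary test (0.131) and on leaving out any array other than WT 2 (0.0509 to 0.124, against 0.0385 without WT 2). Mice of code letter F alone (1 WT and 2 Sel1l-/-), the only letter with both genotypes, gave 0.78, and mice of code number 5, 7 or 9 gave 1.35, 0.53 and 1.30.

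The other fibril-associated chains did not pass. Col14a1, the type XIV relative of type XII, read 10.13, 10.75, 10.46 and 10.01 in WT and 9.62, 10.00, 10.01 and 10.09 in Sel1l-/- mice. Its difference was -0.41 (standard error 0.17, 95% interval -0.80 to -0.02, adjusted p = 0.313), and the groups overlapped at the low end of the WT range, so Col12a1 and Col14a1 had differences of opposite sign. Whether they differ from each other was not tested. Col20a1, the type XX chain, read 6.45, 6.57, 6.43 and 6.71 in WT and 6.75, 6.84, 6.80 and 7.08 in Sel1l-/- mice, without overlap but with a narrow gap between the groups. Its difference was 0.33 (standard error 0.09, adjusted p = 0.144), and it passed with the replicate number as a block (adjusted p = 0.0386), a fit in which 3.85% of all genes passed (1.9% higher and 1.95% lower). With the mouse-code letter as a block its difference was 0.08 (adjusted p = 0.898), and with the code number 0.32 (adjusted p = 0.339). The second probe set of Col20a1 differed by 0.01. Col9a1, Col9a2, Col16a1, Col19a1 and Col22a1 had differences between -0.11 and 0.15.

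**Figure D2:**
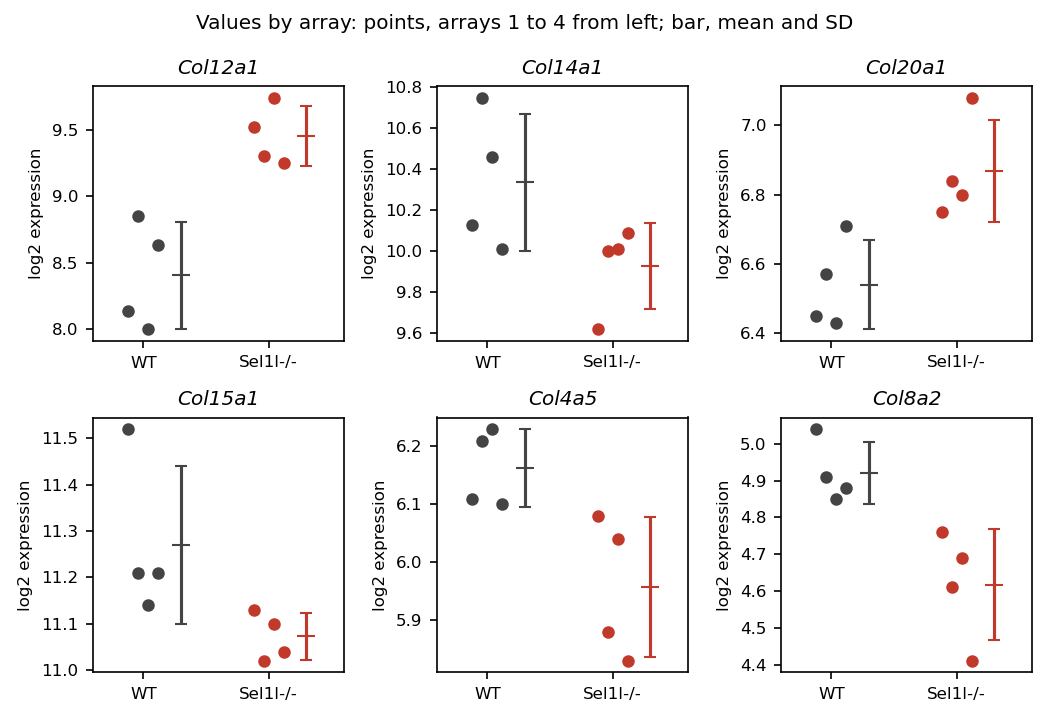
Log2 expression of 6 chains in each array (points, arrays 1 to 4 from left to right) with the mean and SD of each group (bars), WT in grey and Sel1l-/- in red; each panel has its own vertical scale, which does not start at 0. Groups do not overlap for Col12a1, Col20a1, Col15a1, Col4a5 and Col8a2, and they overlap for Col14a1.

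None of the 11 fibrillar chains passed the threshold in limma, and none had an unadjusted p under 0.05. Their differences ran from -0.13 to 0.07. Col1a1 and Col1a2 form type I collagen, the bulk of most fibrils. Col1a1 read 9.99, 11.08, 10.15 and 10.83 in WT 1 to 4 and 10.14, 10.42, 10.33 and 11.12 in Sel1l-/- 1 to 4, a difference of -0.01 (95% interval -0.66 to 0.64, adjusted p = 0.991). Col1a2 read 10.04, 10.91, 10.24 and 10.57 in WT and 10.16, 10.38, 10.36 and 11.09 in Sel1l-/- mice, a difference of 0.06 (95% interval -0.49 to 0.60, adjusted p = 0.944). In both chains WT 2, WT 4 and Sel1l-/- 4 were high and WT 1, WT 3 and Sel1l-/- 1 were low, so mice of 1 genotype differed more than the genotypes did.

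Col3a1, whose type III collagen runs with type I in soft tissue, read 10.22, 10.95, 10.48 and 10.79 in WT and 10.27, 10.54, 10.61 and 10.97 in Sel1l-/- mice. The difference was -0.01 (95% interval -0.44 to 0.42, adjusted p = 0.987). Type V collagen sits inside type I fibrils and sets their diameter. Col5a1 read 7.68, 7.84, 7.59 and 8.06 in WT and 7.72, 7.72, 7.78 and 7.90 in Sel1l-/- mice, a difference of -0.01 (95% interval -0.25 to 0.22, adjusted p = 0.973). Col5a2 read 8.06, 8.56, 8.20 and 8.40 in WT and 7.98, 8.22, 8.36 and 8.85 in Sel1l-/- mice, a difference of 0.05 (95% interval -0.38 to 0.47, adjusted p = 0.939). The groups overlapped in all of these chains. Col3a1 and Col5a2 are neighbours in the RefSeq gene order. Col24a1 did not overlap between groups, at -0.13 (limma adjusted p = 0.375), but its nearest arrays were WT 4 at 5.09 and Sel1l-/- 4 at 5.08. It lay below the median of its array on all 8 arrays.

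Differences of all 6 type IV chains were negative, with a median of -0.15 against -0.00 for all genes, and none passed the threshold in limma, while Col4a5 and Col4a6 had an unadjusted p under 0.05. All 6 stayed negative with the mouse-code number as a block. With the mouse-code letter as a block 2 turned positive, and 1 did without WT 4 or without Sel1l-/- 4. Centring the arrays moved the median of the 6 chains to -0.19, but it moved that of all genes to -0.05 too. The replicate block is balanced and cannot change a difference, so these last 2 fits do not test the sign. Col4a1 and Col4a2 make the network found in nearly all basement membranes. Their RefSeq starts lie 21 bases apart on opposite strands of chromosome 8, at positions 11312826 and 11312805 of GRCm38.p6. Col4a1 read 9.70, 10.05, 9.93 and 10.03 in WT and 9.73, 9.69, 9.87 and 9.88 in Sel1l-/- mice (difference -0.14, 95% interval -0.34 to 0.07, adjusted p = 0.538). Col4a2 read 9.47, 9.69, 9.59 and 9.76 in WT and 9.58, 9.56, 9.64 and 9.61 in Sel1l-/- mice (difference -0.03, 95% interval -0.20 to 0.13, adjusted p = 0.869). Both chains overlapped between groups.

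Col4a5 and Col4a6, which share a network in the basement membranes of smooth muscle and skin, also lie head to head, with starts 1343 bases apart on chromosome X. Col4a5 read 6.11, 6.21, 6.23 and 6.10 in WT and 6.08, 5.88, 6.04 and 5.83 in Sel1l-/- mice, without overlap (difference -0.21, standard error 0.07, adjusted p = 0.237). Col4a6 read 5.65, 5.74, 5.68 and 5.64 in WT and 5.44, 5.67, 5.31 and 5.13 in Sel1l-/- mice, and 1 Sel1l-/- array lay inside the WT range (difference -0.29, standard error 0.11, adjusted p = 0.252). Col4a6 lay below the median of its array throughout, as did Col4a3 and Col4a4, and none of these is shown to be above background.

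The multiplexins, collagens with sugar side chains that sit next to basement membranes, were also negative. Col15a1, abundant around adipocytes and vessels, read 11.52, 11.21, 11.14 and 11.21 in WT and 11.13, 11.02, 11.10 and 11.04 in Sel1l-/- mice. The groups did not overlap, but the nearest arrays were 0.01 apart (difference -0.20, standard error 0.09, adjusted p = 0.346). Col18a1, whose end fragment is endostatin, read 8.58, 8.63, 8.77 and 8.76 in WT and 8.65, 8.60, 8.66 and 8.50 in Sel1l-/- mice (difference -0.08, adjusted p = 0.629).

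Type VI collagen forms beaded filaments around adipocytes, and none of its 6 chains passed the threshold in limma or had an unadjusted p under 0.05. Col6a1 read 10.74, 11.19, 10.90 and 11.38 in WT and 10.68, 10.95, 11.00 and 11.01 in Sel1l-/- mice (difference -0.15, 95% interval -0.47 to 0.18, adjusted p = 0.702). Its neighbour Col6a2 read 10.68, 11.16, 10.76 and 11.54 in WT and 10.64, 10.91, 10.92 and 11.15 in Sel1l-/- mice (difference -0.13, 95% interval -0.57 to 0.31, adjusted p = 0.809). Col6a3, whose chain carries the end fragment endotrophin, read 9.55, 10.06, 9.60 and 10.09 in WT and 9.61, 9.76, 9.89 and 10.28 in Sel1l-/- mice (difference 0.06, 95% interval -0.34 to 0.46, adjusted p = 0.918). The groups overlapped in each of these, and WT 2 and WT 4 were again the highest WT arrays. With the mouse-code letter as a block the differences were -0.57 for Col6a1, -0.77 for Col6a2 and -0.41 for Col6a3, none past the threshold, and the median of the 6 chains moved from -0.05 to -0.49. That block compares genotypes within letter F only, where WT 4, the highest WT array for each of these chains, is the 1 WT mouse.

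Col6a5, an alternative partner of Col6a1 and Col6a2 in the molecule, varied most between mice. It read 8.36, 10.95, 8.07 and 9.79 in WT and 9.05, 9.23, 8.53 and 10.24 in Sel1l-/- mice, a 7.37-fold range among WT mice, beside a difference between groups of -0.03 (standard error 0.64). Its SD within groups, 1.07, lay at percentile 99.8 of all genes, against a median of 0.13 for all genes and 0.15 for the 42 chains. The second probe set of Col6a5 read 7.14, 9.49, 7.0 and 8.28 in WT and 7.59, 7.81, 7.23 and 8.74 in Sel1l-/- mice, with the same arrays high and low. Col1a1 came next, with an SD of 0.48 (percentile 96.8).

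Of the 19 chains above the median of the array on all 8 arrays, WT 2 or WT 4 was the highest WT array in 10 and 7, WT 1 the lowest in 11, Sel1l-/- 4 the highest Sel1l-/- array in 13 and Sel1l-/- 1 the lowest in 10. Col12a1 was highest in WT 2 and lowest in WT 3 among WT mice, and Sel1l-/- 3 was its highest and Sel1l-/- 4 its lowest Sel1l-/- array. The mean of the 6 type VI chains was 8.45, 9.38, 8.45 and 9.17 in WT and 8.58, 8.86, 8.79 and 9.07 in Sel1l-/- mice. The mean of 14 macrophage markers was 9.39, 10.14, 9.41 and 10.32 in WT and 9.79, 10.25, 10.18 and 10.74 in Sel1l-/- mice. Within WT, WT 2 and WT 4 were high there too, and within Sel1l-/- mice Sel1l-/- 4 was highest and Sel1l-/- 1 lowest. Across genotypes the order was not shared: Sel1l-/- 2 and Sel1l-/- 3 lay above WT 2 for these markers and below it for type VI. The mean of 13 fibroblast and adipocyte progenitor markers was 10.32, 10.61, 10.59 and 10.21 in WT and 10.10, 10.26, 10.27 and 10.24 in Sel1l-/- mice, where WT 4 was low and WT 3 high. Members of this list differed in the order of the WT arrays. For Lum and Pdgfrb, WT 2 and WT 4 were the highest, while for Gsn and Cd34 WT 3 was highest and WT 4 lowest. The part of macrophages or fibroblasts in the collagen values was not tested.

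**Figure D3:**
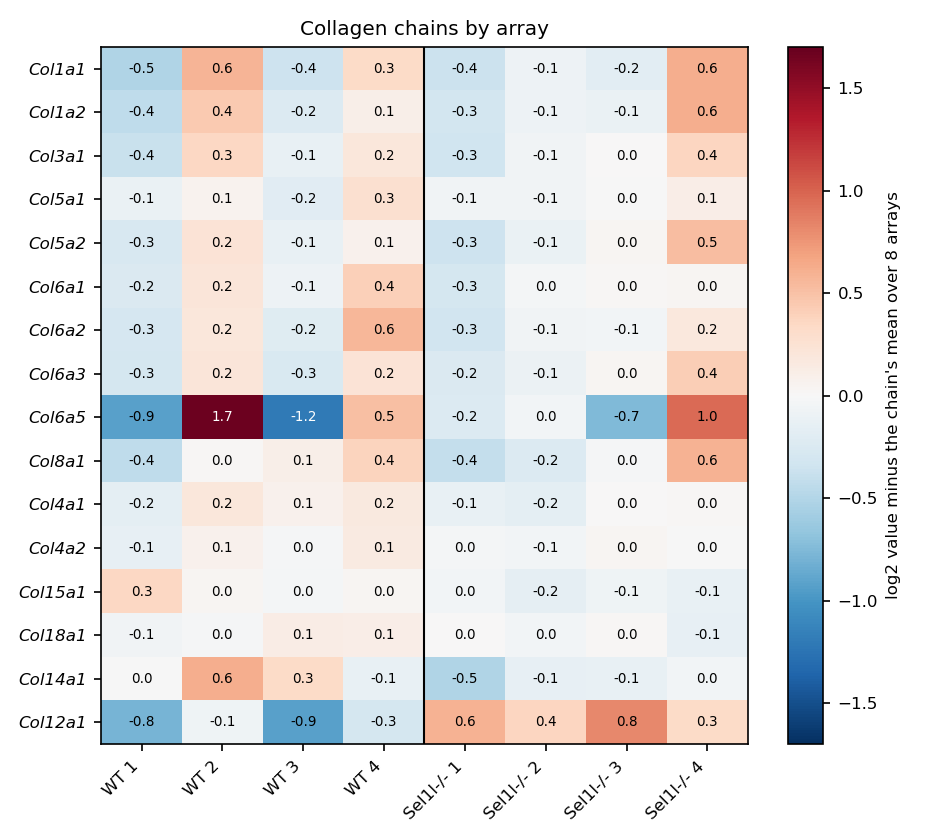
Log2 value of 16 chains in each array minus the mean of that chain over the 8 arrays (colour and printed number, in log2 units), with WT to the left and Sel1l-/- to the right of the line. Type I, III, V and VI chains are mostly high in WT 2, WT 4 and Sel1l-/- 4 and low in WT 1, WT 3 and Sel1l-/- 1, Col6a5 most of all, while Col12a1 is low in all WT and high in all Sel1l-/- arrays.

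Type VIII collagen forms open networks in vessel walls. Its Col8a2 read 5.04, 4.91, 4.85 and 4.88 in WT and 4.76, 4.61, 4.69 and 4.41 in Sel1l-/- mice, without overlap (difference -0.31, standard error 0.09, 95% interval -0.50 to -0.11, adjusted p = 0.135), at a level below the median of every array. Its partner Col8a1 overlapped (difference -0.03, 95% interval -0.56 to 0.50). Differences of the 4 transmembrane chains ran from -0.05 to 0.07, and Col10a1, Col26a1 and Col28a1 were at 0.06, 0.08 and -0.01. In all, 20 of the 42 chains lay below the median of the array on all 8 arrays and are not shown to be above background, among them Col2a1, Col11a1 and Col11a2, the fibrillar chains of cartilage.

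Of 28 measured enzymes and carriers that fold, export and process collagen, 2 rose and 1 fell (10.7% called, against 1.72% of all genes). P4hb, a protein disulfide isomerase that also serves as the β subunit of prolyl 4-hydroxylase, read 11.15 to 11.31 in WT and 11.71 to 11.90 in Sel1l-/- mice (1.47-fold, limma adjusted p = 0.00817). Mia3, the cargo receptor that helps to load bulky collagens into transport vesicles, read 8.89 to 9.09 in WT and 9.47 to 9.86 in Sel1l-/- mice (1.61-fold, adjusted p = 0.0103). Pcolce2, which speeds the trimming of procollagen ends, read 9.81 to 10.21 in WT and 8.82 to 9.05 in Sel1l-/- mice (2.17-fold lower, adjusted p = 0.00334). These 3 genes kept their calls without any 1 array and with the replicate block, and lost them with either mouse-code block (adjusted p = 0.0544 to 0.230). The collagen chaperone Serpinh1 had a difference of 0.12 (adjusted p = 0.759).

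Among 20 basement membrane partners, which include laminins, nidogens and perlecan, 17 had negative differences (median -0.20, against 9634 of all 18820 genes negative and a median of -0.00), 2 fell and none rose (10.0% called, against 1.72% of all genes). They were Smoc1, a calcium-binding protein of basement membranes (9.92 to 11.00 in WT, 9.10 to 9.31 in Sel1l-/- mice, adjusted p = 0.0195, 2.60-fold lower), and Pxdn, the peroxidase that forms crosslinks in type IV collagen (11.30 to 11.42 in WT, 10.56 to 11.03 in Sel1l-/- mice, 1.47-fold lower, adjusted p = 0.0308). Pxdn kept its call in 2 of the 8 fits without 1 array, and Smoc1 in 3. The laminin chain Lama1, named after its values were seen, read higher in Sel1l-/- mice without overlap, 5.39 to 6.40 against 4.64 to 4.87 in WT, and did not pass (difference 0.92, adjusted p = 0.0755). The 12 markers of endothelial cells, which make basement membrane too, all had negative differences and an unadjusted limma p under 0.05, against 15.0% of all genes. Past the threshold were Eng (1.30-fold lower, adjusted p = 0.0195) and Pecam1 (1.31-fold lower, adjusted p = 0.0290), or 16.7% called against 1.72% of all genes. The mean of the 12 markers was 10.14 to 10.39 in WT and 9.65 to 9.99 in Sel1l-/- mice, without overlap. For the 6 type IV chains the mean was 7.0 to 7.06 in WT and 6.75 to 6.96 in Sel1l-/- mice. Of those 6 only Col4a5 did not overlap between groups, and the abundant Col4a1 and Col4a2 differed by -0.14 and -0.03. Negative differences were not particular to endothelial markers. They were found in 10 of 12 mural and myofibroblast markers (median -0.31) and 11 of 13 fibroblast and adipocyte progenitor markers (median -0.27). All 9 mesothelial and 10 of 11 adipocyte markers were negative too, while all 14 macrophage markers were positive. The part of endothelial or other cells in the type IV values was not tested.

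**Figure D4:**
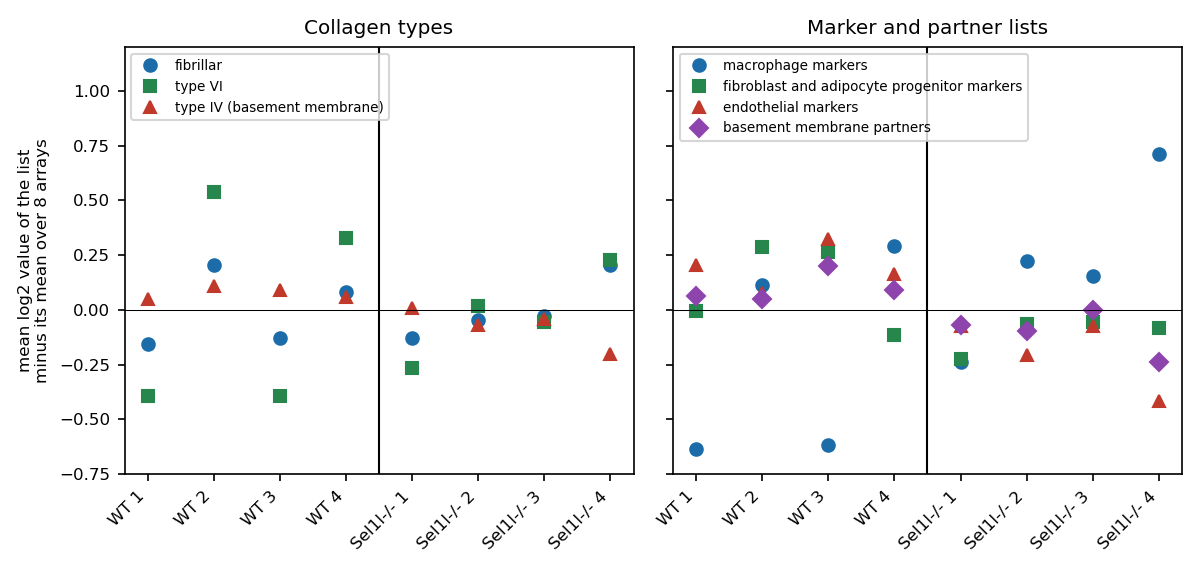
Mean log2 value of collagen types (left) and of marker and partner lists (right) in each array, minus the mean of that list over the 8 arrays; the vertical line parts WT from Sel1l-/- arrays. Within each genotype, fibrillar and type VI means and macrophage markers are highest in WT 2, WT 4 and Sel1l-/- 4. The means of type IV chains, basement membrane partners and endothelial markers are lower in each Sel1l-/- array than in each WT array. Of the single type IV chains, only Col4a5 did not overlap between groups.

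Of 12 measured collagen receptors 1 rose and 1 fell (16.7% called, against 1.72% of all genes). Ddr2, a receptor kinase that binds fibrillar collagen, read 10.46 to 10.84 in WT and 11.05 to 11.18 in Sel1l-/- mice (1.42-fold, adjusted p = 0.0349). Itga2, the α2 chain of a collagen-binding integrin, read 6.24 to 6.37 in WT and 5.89 to 6.03 in Sel1l-/- mice (1.29-fold lower, adjusted p = 0.0231). Without 1 array they kept their calls in 1 and 2 of 8 fits. Among 18 proteases and inhibitors (5.56% called) Mmp11, a stromelysin, rose 1.66-fold (adjusted p = 0.0448, kept in 1 of those 8 fits and lost with the arrays centred, 0.0514). Of 19 genes of TGF-β signalling (5.26% called), a known inducer of fibrillar collagens, Ccn2 fell from 9.76 to 10.18 in WT to 8.69 to 9.33 in Sel1l-/- mice (1.92-fold lower, adjusted p = 0.0228, kept in 3 of 8). None of 24 fibril-binding proteoglycans and glycoproteins passed in limma, 7 had an unadjusted p under 0.05 and 18 had a negative difference, among them Eln at -0.54 (adjusted p = 0.181) and Dpt at -0.32 (adjusted p = 0.264). Smoc1, Pxdn, Ddr2, Itga2, Mmp11, Ccn2, Eng and Pecam1 lost their calls with either mouse-code block (adjusted p = 0.0748 to 0.599).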

How the data were processed

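White adipose tissue RNA of 8 mice was measured on 1-colour arrays. The authors deposited log2 values; RMA (background correction, quantile normalization, summary of probes) is named in the submitters' processing notes, and their range (1.72 to 13.9) gave the log2 scale. RMA makes arrays alike, so a shift of most genes would not show.

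Of 35556 probe sets, 21218 carried 1 gene symbol in the platform annotation, and 18820 genes were each represented by the probe set with the highest mean. The 42 chains had 46 such probe sets, 4 chains having 2. Groups were compared over all genes with limma 3.58.1 in R 4.3.3 (lmFit, eBayes, two-sided, Benjamini-Hochberg), with Python 3.11.15 for summaries, and the fit was tested on simulated data. Promoter windows came from RefSeq (GRCm38.p6) and matched 34 chains.

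Values per array are given for chains past the threshold, the 4 next by p and 12 chains known to be abundant in fat; Col14a1, Col6a5 and others were named after their values were seen. From partner lists, up to 4 genes past the threshold are named, otherwise 2 by p; Serpinh1 was added. Marker lists covered fibroblasts, mural cells, endothelium, macrophages, mesothelium, adipocytes, nerve, muscle, epithelium and lymphocytes. Members and lists were chosen with earlier results of these data known. Mice are separate animals.

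Titles number mice 1 to 4 in both groups; after subtracting group means, mice sharing a number correlated at 0.518, 0.107, 0.363 and 0.524, so an alternative fit treats them as pairs, although no label says so. The highest correlation between differently numbered mice was 0.328. Alternatives were this block, blocks from the letter and number of the mouse code, array centring, filters on dim genes, averaged probe sets, array weights, a variance trend, no moderation, and each array left out.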

Additional observations from a re-analysis of the deposited data

How the results depend on the processing

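The count of collagen chains past the threshold, 1, was 1 with the replicate block (Col20a1 in place of Col12a1), with filters on dim genes, averaged probe sets, array weights and a variance trend. It was 0 with the mouse-code letter or number as a block, the arrays centred, or no moderation, and 0 to 1 without 1 array. No chain other than Col12a1 and Col20a1 passed in any of the 18 alternative fits. The replicate block changed no other call among the chains. Over all genes the 324 calls became 725 with the replicate block, 20 and 11 with the letter and the number as a block, 566 with array weights, 124 without moderation, and 100 to 336 without 1 array. Small differences changed sign with the letter block for Col1a2 (-0.30), Col5a2 (-0.30) and Col6a3 (-0.41), while Col1a1 (-0.56), Col6a1 (-0.57) and Col6a2 (-0.77) kept theirs and grew. They also changed sign with the number block for Col1a2 (-0.05) and Col5a2 (-0.00), and with array weights for Col1a2 (-0.11), Col5a2 (-0.05) and Col6a3 (-0.02). Without 1 array they ran from -0.22 to 0.18 for Col1a1, -0.14 to 0.21 for Col1a2, -0.14 to 0.10 for Col3a1, -0.08 to 0.08 for Col5a1, -0.12 to 0.17 for Col5a2, -0.09 to 0.01 for Col4a2, -0.25 to 0.04 for Col6a2 and -0.07 to 0.15 for Col6a3. None of these chains passed in any fit, and the cause was not tested. The letter block compares genotypes only within letter F (1 WT and 2 Sel1l-/- mice). Signal over background limits the 20 dim chains.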

Other observations

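Col7a1 (anchoring fibrils of skin) and Col9a3 (cartilage) had only probe sets shared with another gene, which differed by 0.01 and -0.02 between groups. The second probe sets of Col5a1 and Col6a6 differed by -0.04 and -0.01, against -0.01 and 0.11 for those used. In the RefSeq gene order 8 pairs of neighbouring genes were both collagen chains, and in the pair Col6a2 and Col6a1 the differences were -0.13 and -0.15.

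Among the remaining marker lists, 1 of 12 mural and myofibroblast markers fell (8.33% called, against 1.72% of all genes). It was Tagln, 1.51-fold lower (limma adjusted p = 0.0476), which kept its call in 1 of 8 fits without 1 array. Of 10 epithelial markers 1 fell (10.0% called). It was Cldn3, 1.40-fold lower (limma adjusted p = 0.0451, and 0.0536 with the replicate block). No macrophage, fibroblast, mesothelial, adipocyte, nerve, muscle or lymphocyte marker passed in limma, and 0, 6, 3, 2, 0, 0 and 1 of them had an unadjusted p under 0.05. All 14 macrophage markers had positive differences (median 0.38), and all 9 mesothelial markers negative ones (median -0.38). The mean of the adipocyte markers was 12.13 to 12.38 in WT and 11.68 to 12.18 in Sel1l-/- mice. The mean of the skeletal muscle markers was 4.98 to 5.08 in WT and 4.92 to 5.09 in Sel1l-/- mice. That is between the lower quartile (4.33 to 4.37) and the median (6.05 to 6.14) of all probe sets.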
